A study of Homo sapiens with 6 samples.

Results

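Chromatin immunoprecipitation and sequencing (ChIP-seq) of PLAG1-S and USF2 was examined at 49 human genes whose products sort membrane cargo through endosomes. The genes were chosen by function, as subunits of the adaptor complexes AP-1 to AP-5 (28 genes) and the tethering complexes HOPS and CORVET (8). The others were subunits of retromer (3) and of the ESCRT machinery (8) and the endosomal GTPases RAB5A and RAB7A. VPS33B, whose product works in a related complex, was counted among the 8 HOPS and CORVET genes. A peak was assigned to a gene when its interval lay in the gene body or within 3 kb of it on hg38, and the same rule was applied to all 20037 protein-coding genes of the RefSeq annotation. Of 37574 PLAG1-S peaks in clone 4 and 29889 in clone 5, 84 and 83 lay at the 49 genes, and of 9338 and 4369 USF2 peaks, 31 and 17 did.

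The libraries came from K562, a human chronic myeloid leukaemia line. A lentiviral vector encoded Flag-tagged PLAG1-S, the shorter isoform of a zinc finger factor, and the basic helix-loop-helix factor USF2, joined by a self-cleaving peptide. Clone 4 and clone 5 each carried both transgenes and were each immunoprecipitated with anti-Flag, for PLAG1-S, and with anti-USF2, and peaks were called against the merged inputs of both clones. All groups therefore overexpressed both factors, no control lacked the transgenes, each line was 1 clone, and anti-USF2 cannot separate transgenic from endogenous USF2. The lists hold no expression values.

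Adaptor complexes gather transmembrane cargo into vesicles. AP-1 works between the trans-Golgi network and endosomes, AP-2 at the plasma membrane, AP-3 on the way from endosomes to lysosomes and lysosome-related organelles, AP-4 at the trans-Golgi network and AP-5, with its partners SPG11 and ZFYVE26, at late endosomes. CORVET tethers early endosomes and HOPS tethers late endosomes and lysosomes, retromer recovers receptors from endosomes, and ESCRT proteins sort ubiquitinated receptors into vesicles inside the endosome. USF2 is known to bind the E-box CACGTG, and PLAG1 a G-rich sequence in separated blocks.

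The sequences below show promoter stretches at the genes on which the results turn. They were read from the RefSeq promoters (GRCh38.p14, 250 bases before to 50 bases after the gene start), which held 39 of the 49 genes, and are written 5′ to 3′ on the strand of the gene. Capitals mark CACGTG in 8 of them and, at VPS35, matches to the G-rich motif, GAGGC or GGGGC followed by 6 to 8 bases and GGG. Each stretch with CACGTG holds up to 45 bases on either side of its first match. These stretches were placed by the motif and not by the summits, so an E-box in each is built in. At ZFYVE26 a PLAG1-S summit and a USF2 summit lay outside the stretch. The first 7 stretches with CACGTG come from promoters under a peak of both factors. RAB5A is shown as the promoter with CACGTG and PLAG1-S in both clones but USF2 in 1, and VPS35 as a promoter under both factors without CACGTG.
VPS8, chr3:184812138-184812195, plus strand: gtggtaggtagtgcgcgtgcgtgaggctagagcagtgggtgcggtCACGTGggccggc
AP5Z1, chr7:4775541-4775636, plus strand: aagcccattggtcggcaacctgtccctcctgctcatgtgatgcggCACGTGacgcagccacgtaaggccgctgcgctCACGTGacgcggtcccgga
AP4M1, chr7:100101393-100101467, plus strand: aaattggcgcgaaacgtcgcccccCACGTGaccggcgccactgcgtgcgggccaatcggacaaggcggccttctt
VPS11, chr11:119067717-119067812, plus strand: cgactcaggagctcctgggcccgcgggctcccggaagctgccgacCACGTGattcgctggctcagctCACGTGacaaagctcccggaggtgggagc
ZFYVE26, chr14:67816662-67816757, minus strand: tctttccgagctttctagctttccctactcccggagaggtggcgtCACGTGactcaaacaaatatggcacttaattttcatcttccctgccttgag
VPS16, chr20:2840634-2840729, plus strand: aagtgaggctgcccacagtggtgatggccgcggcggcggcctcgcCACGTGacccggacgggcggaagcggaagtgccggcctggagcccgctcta
AP1S2, chrX:15854995-15855063, minus strand: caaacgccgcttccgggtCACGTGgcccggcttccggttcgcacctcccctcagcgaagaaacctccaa
RAB5A, chr3:19946931-19947026, plus strand: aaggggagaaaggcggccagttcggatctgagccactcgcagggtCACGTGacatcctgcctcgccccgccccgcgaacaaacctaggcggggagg
VPS35, chr16:46689149-46689268, minus strand: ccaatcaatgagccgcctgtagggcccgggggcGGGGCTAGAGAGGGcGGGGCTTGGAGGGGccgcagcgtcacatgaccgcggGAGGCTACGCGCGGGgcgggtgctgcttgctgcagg

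Strength is given as the fold enrichment of the summit over the local background, as the peak caller wrote it, and the number of fragments at each summit was recovered from it, with an exact 95% Poisson interval. The interval covers counting error only. A PLAG1-S or USF2 peak is called reproducible when it was found at overlapping positions in clone 4 and clone 5, and co-bound when a reproducible PLAG1-S peak lay within 100 bp of a reproducible USF2 peak. The stated depth was 42.5 M reads per immunoprecipitation and 55 M per input. The highest q-value kept in clones 4 and 5 was 0.0099 and 0.0097 for PLAG1-S but 0.049 and 0.048 for USF2. With 2 clones per factor, no test of a gene or of a group was run, and the counts are set beside the share of all protein-coding genes called by the same rule.

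PLAG1-S was found at most of the sorting genes and USF2 at a minority, and every gene with reproducible USF2 was co-bound. PLAG1-S peaks lay at 40 of the 49 genes in clone 4 (81.6%, against 64.0% of all protein-coding genes) and at 39 in clone 5 (79.6%, against 58.3%). USF2 peaks lay at 24 genes in clone 4 (49.0%, against 25.3%) and at 17 in clone 5 (34.7%, against 13.6%). Reproducible PLAG1-S peaks were found at 36 genes (73.5%, against 52.0%), reproducible USF2 peaks at 14 (28.6%, against 10.3%) and co-bound peaks at the same 14 (28.6%, against 9.98%). Over all protein-coding genes, 2073 had a reproducible USF2 peak and 2000 a co-bound peak, so these counts lay close together there as well. All 7 shares of the sorting genes were above that of all protein-coding genes. They are not separate results, since the same genes and lists gave all of them, and the genes were chosen with earlier results of these data known.

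The median sorting gene was also longer, 38.1 kb against 24.1 kb for all protein-coding genes, and a longer gene offers more sequence to the rule. When only the 3 kb around either gene end counted, reproducible PLAG1-S lay at 35 genes (71.4%, against 45.4%), USF2 at 13 (26.5%, against 8.84%) and both at 13 (26.5%, against 8.6%). Within 1 kb of the gene start, known for 39 of the genes, PLAG1-S lay at 25 (64.1%, against 39.9%), USF2 at 10 (25.6%, against 7.28%) and both at 10 (25.6%, against 7.22%). The order of the shares was the same in each of these windows.

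**Figure D1:**
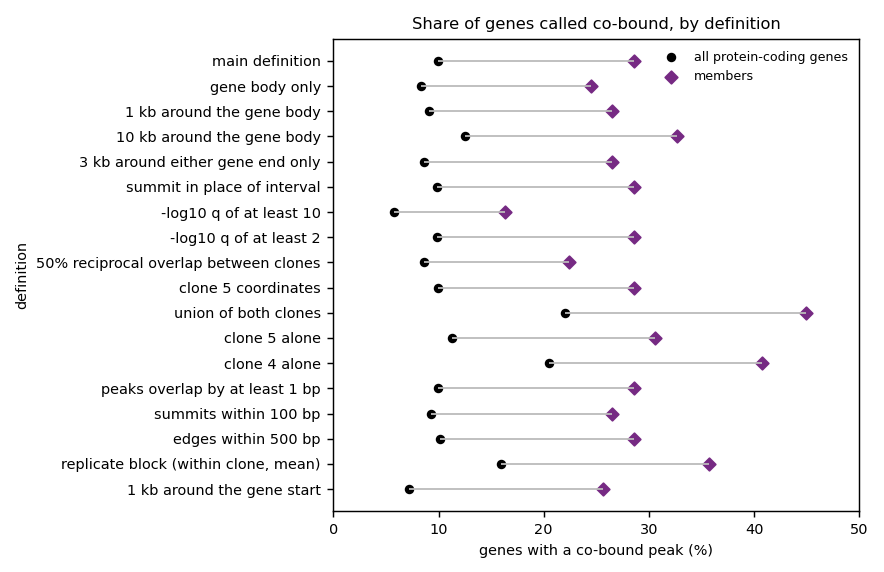
Share of genes with a co-bound peak (horizontal axis, percent) under each definition of peak and window (vertical axis), with diamonds for the sorting genes and circles for all protein-coding genes. The diamond lies to the right of the circle in each line, from 16.3% against 5.74% at the strictest threshold to 44.9% against 22.0% with peaks of either clone.

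Counts by complex are given as a description, since the groups hold 2 to 8 genes. The HOPS and CORVET group counts VPS33B, which works in a related complex. Co-bound peaks were found at 4 of 8 HOPS and CORVET genes, 2 of 3 retromer genes, 2 of 6 AP-5 genes, 2 of 6 AP-3 genes, 2 of 7 AP-1 genes, 1 of 4 AP-4 genes and 1 of the 2 RAB genes. None was found at the 5 AP-2 genes or the 8 ESCRT genes, and with 9.98% of all protein-coding genes co-bound, 0 of 5 or of 8 lies near the background. Over the 5 adaptor complexes together, 20 of 28 genes carried reproducible PLAG1-S (71.4%, against 52.0%) and 7 were co-bound (25.0%, against 9.98%). AP-5, retromer and the 2 RAB genes were the groups in which each gene carried reproducible PLAG1-S.

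**Figure D2:**
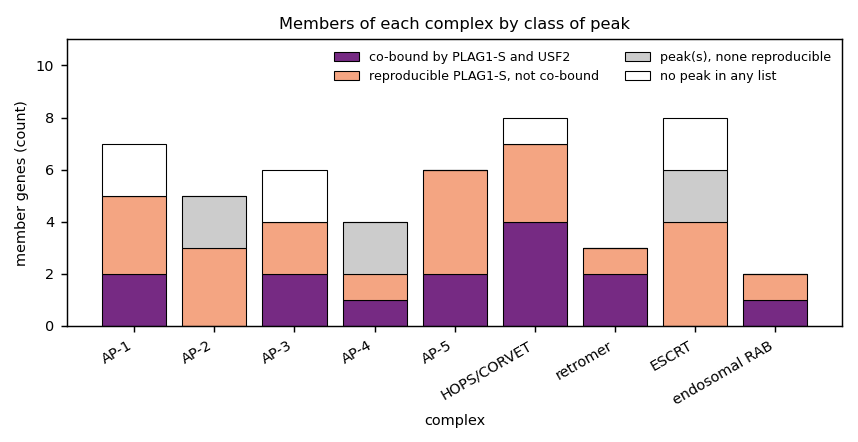
Number of genes (vertical axis) of each complex (horizontal axis), divided by class of peak. The co-bound part is 4 of 8 genes at HOPS/CORVET and is missing at AP-2 and ESCRT, and HOPS/CORVET, AP-1, AP-3 and ESCRT hold the genes without any peak.

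In the HOPS and CORVET group, PLAG1-S lay in both clones at 7 of the 8 genes (87.5%, against 52.0% of all protein-coding genes). VPS33B was the gene without it. The largest clone 4 PLAG1-S fold enrichments of the 7 ran from 10.1 to 35.5. VPS8, a subunit of CORVET that HOPS lacks, had a co-bound peak at chr3:184811978-184812490 where the PLAG1-S fold enrichment was 35.5 in clone 4 and 34.1 in clone 5 and that of USF2 was 16.3 and 12.1, the clones being given in this order from here on. The PLAG1-S values of the clones were nearly equal, and all 4 summits lay 8 to 20 bases downstream of the gene start, beside the E-box printed above. VPS11, a subunit common to both complexes, carried PLAG1-S of 28.0 and 24.6 with USF2 of 13.7 and 11.7 at chr11:119067385-119068049. Its summits lay 34 to 38 bases upstream of the start and within the stretch that holds both E-boxes.

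VPS16, another shared subunit, had PLAG1-S fold enrichments of 25.3 and 18.2 and USF2 fold enrichments of 8.31 and 5.81 at chr20:2840412-2840871, a promoter inside the annotated gene PCED1A. VPS33A, the shared subunit that binds SNARE proteins, had PLAG1-S of 20.0 and 13.6 with USF2 of 5.94 and 7.21 at chr12:122266249-122266673. Its clone 4 summit lay 5 bp from an end of the gene. Here and at VPS18, VPS26A and AP3D1, an end is either boundary of the annotated gene, since no strand or start was available. Clone 4 was higher for PLAG1-S at VPS16 and VPS33A. It was lower for USF2 at VPS33A, where the USF2 intervals of 4.26 to 8.06 and 5.39 to 9.46 overlapped. VPS18, the remaining shared subunit, had PLAG1-S peaks of 12.7 and 8.88, with the clone 4 summit 13 bp from an end of the gene. USF2 lay there in clone 4 with 4.78, whereas its clone 5 USF2 peak of 3.88 lay inside the gene, so that no USF2 peak was reproducible.

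The HOPS subunits VPS39 and VPS41 carried PLAG1-S without USF2 in either clone. At VPS41 the PLAG1-S fold enrichment was 15.1 (95% interval 11.6 to 19.2, 63 fragments) in clone 4 and 7.89 (5.67 to 10.7, 39 fragments) in clone 5, with summits at 4 bases upstream and 18 bases downstream of the start. These intervals did not overlap. At VPS39 the values were 10.1 and 8.13, at a summit 127 bp from the 3′ end of the gene and not at its start. VPS33B, whose product works in a related complex with VIPAS39, had no peak in any list.

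Retromer held both factors at its VPS26A and VPS35 genes. VPS35, the long scaffold subunit, carried PLAG1-S fold enrichments of 34.6 and 29.1 and USF2 fold enrichments of 11.7 and 8.83 at chr16:46688617-46689440. All summits lay 3 to 32 bases upstream of the start, over the stretch with 3 G-rich matches, and an end of ORC6 lay within 1 kb. VPS26A, an arrestin-like subunit that binds VPS35, had PLAG1-S of 28.5 and 23.2 with USF2 of 14.3 and 10.9 at chr10:69123720-69124687. Its clone 4 summit lay 4 bp from an end of the gene, whether start or 3′ end was not determined. VPS29, the smallest subunit, had PLAG1-S peaks of 5.61 and 4.65 and no USF2.

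Among the sorting genes, AP-5 held the strongest peaks of both factors. AP5Z1 encodes the zeta subunit, and its peak at chr7:4775218-4775896 reached 64.2 (56.4 to 72.8, 244 fragments) and 40.1 (34.5 to 46.4, 182 fragments) for PLAG1-S. The USF2 fold enrichment there was 57.6 (50.3 to 65.7) and 47.9 (41.2 to 55.4). The PLAG1-S intervals of the clones did not overlap and those of USF2 did, and clone 5 of AP5Z1 was the only case among the co-bound genes in which USF2 exceeded PLAG1-S. Its summits lay 17 to 41 bases upstream of the start, with those of PLAG1-S over the upstream E-box in clone 4 and between the 2 printed E-boxes in clone 5, and those of USF2 just upstream of both.

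ZFYVE26, the AP-5 partner also known as spastizin, had PLAG1-S of 19.2 and 12.5 with USF2 of 6.05 and 7.18 at chr14:67816304-67817172. SPG11, or spatacsin, had 19.6 and 13.3 for PLAG1-S, but USF2 of 5.85 in clone 4 with no peak in clone 5. The 2 partner genes thus had similar PLAG1-S values in each clone and differed in whether USF2 was called in clone 5. The remaining AP-5 subunits, AP5B1, AP5M1 and AP5S1, carried PLAG1-S only, with clone 4 values of 8.46, 3.78 and 5.27.

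AP4M1, the mu subunit gene of AP-4, lay under the widest co-bound peak of the sorting genes, 1633 bp at chr7:100100485-100102117. PLAG1-S reached 32.8 and 30.2 there and USF2 16.2 and 14.1. The values of the clones were close, and the 4 summits fell within 4 bases of each other, 229 to 233 bases upstream of the AP4M1 start in the RefSeq promoter set. The start of MCM7, a subunit of the replicative helicase, lay only 14 bp from the clone 4 PLAG1-S summit. The peak therefore cannot be assigned to AP4M1 rather than to its neighbour. AP4S1 had PLAG1-S alone, at 7.38 and 8.01, and AP4B1 and AP4E1 each had PLAG1-S in 1 clone.

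In AP-1, the co-bound genes were the sigma subunits AP1S1 and AP1S2, and their peaks differed in place. AP1S2 carried PLAG1-S of 21.5 and 21.1 with USF2 of 8.45 and 6.32 at chrX:15854803-15855194, around the E-box 219 to 248 bases upstream of its start. AP1S1 was counted through a peak at chr7:101162633-101163255 with PLAG1-S of 19.0 and 13.4 with USF2 of 6.75 and 4.04, which lay 1742 bp past the gene, inside VGF. At its own start AP1S1 had PLAG1-S of 4.63 and 4.78 and no USF2. The beta, gamma and mu subunit genes AP1B1, AP1G1 and AP1M1 had reproducible PLAG1-S between 4.44 and 7.67 over both clones. AP1G2 and AP1S3 had no peak.

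The co-bound AP-3 genes were AP3D1 and AP3M1, and neither peak had an annotated end of its own gene as the nearest coding gene end. AP3M1, the mu subunit gene, had PLAG1-S of 17.2 and 13.2 with USF2 of 6.12 and 4.16 at chr10:74151208-74152068. The clone 4 PLAG1-S summit lay 569 bases upstream of AP3M1 and 176 bp from the start of ADK, the adenosine kinase gene. AP3D1, the delta subunit gene, had the weakest co-bound peak, with PLAG1-S of 12.4 and 10.7 with USF2 of 4.1 and 3.22 at chr19:2150799-2152064. This peak lay inside the gene, 13079 bp from its nearer annotated end. No start was available for AP3D1, so the distance of this peak from a start was not measured. AP3M2 carried PLAG1-S up to 15.8 in clone 4, at a peak outside the gene, 2007 bp from it and nearest to PLAT. Its peak 227 bp from a gene end reached 5.66. AP3S2 carried up to 11.5 in clone 4, 18854 bases inside the gene from its start, and 7.93 near the start. Both genes had USF2 in clone 4 alone, and AP3B1 and AP3S1 had no peak.

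AP-2, the adaptor of the plasma membrane, had peaks at all 5 genes and no co-bound peak. AP2M1, the mu subunit gene, came nearest, with USF2 in both clones at different positions. Its strongest PLAG1-S peak, 17.1 and 13.5, lay 3048 bases upstream of its start in DVL3 with USF2 of 4.5 in clone 4, and the clone 5 USF2 peak of 4.18 lay 252 bases downstream of the start. AP2A2 and AP2S1 had reproducible PLAG1-S with clone 4 values up to 7.03 and 4.42, and USF2 in 1 clone each. AP2A1 and AP2B1 had peaks, but none at overlapping positions in both clones.

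Among the 8 ESCRT genes, USF2 was called at 1, in clone 4, where 25.3% of all protein-coding genes had a USF2 peak. With 8 genes, this count is not read as a difference from that share. The median of the largest clone 4 PLAG1-S fold enrichments was 5.89, much like the 5.8 at AP-1 and 4.63 at AP-2. The largest clone 4 PLAG1-S fold enrichment of each gene with a peak ran from 3.21 to 12.0, and the single USF2 peak, at HGS in clone 4, reached 4.0. HGS and STAM encode ESCRT-0, which binds the ubiquitinated cargo, and TSG101 and VPS37A belong to ESCRT-I. HGS, CHMP2A, CHMP4B and the ATPase gene VPS4A had reproducible PLAG1-S. At CHMP2A it lay inside the neighbouring gene UBE2M, and the strongest peak of HGS lay inside MRPL12. STAM and TSG101 had PLAG1-S in 1 clone each, and VPS37A and VPS4B had no peak.

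The 2 RAB genes had equal PLAG1-S fold enrichments in clone 4. RAB7A, the GTPase of late endosomes, carried PLAG1-S of 15.5 and 13.3 with USF2 of 6.31 and 4.52 at chr3:128725974-128727099. These values came from different places in the interval, since the clone 4 PLAG1-S summit lay 66 bases upstream of the start and the others 701 to 717 bases downstream. Near the upstream summit, PLAG1-S in clone 5 reached 7.74 at 71 bases upstream and USF2 in clone 4 reached 4.28 at 91 bases upstream, and no clone 5 USF2 peak was called there. RAB5A, the GTPase of early endosomes, carried 15.5 and 11.3 for PLAG1-S and 3.52 for USF2 in clone 4, with no USF2 peak in clone 5. Its E-box lay in the printed stretch, and the start of EFHB lay 10 bp from the clone 4 PLAG1-S summit.

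**Figure D3:**
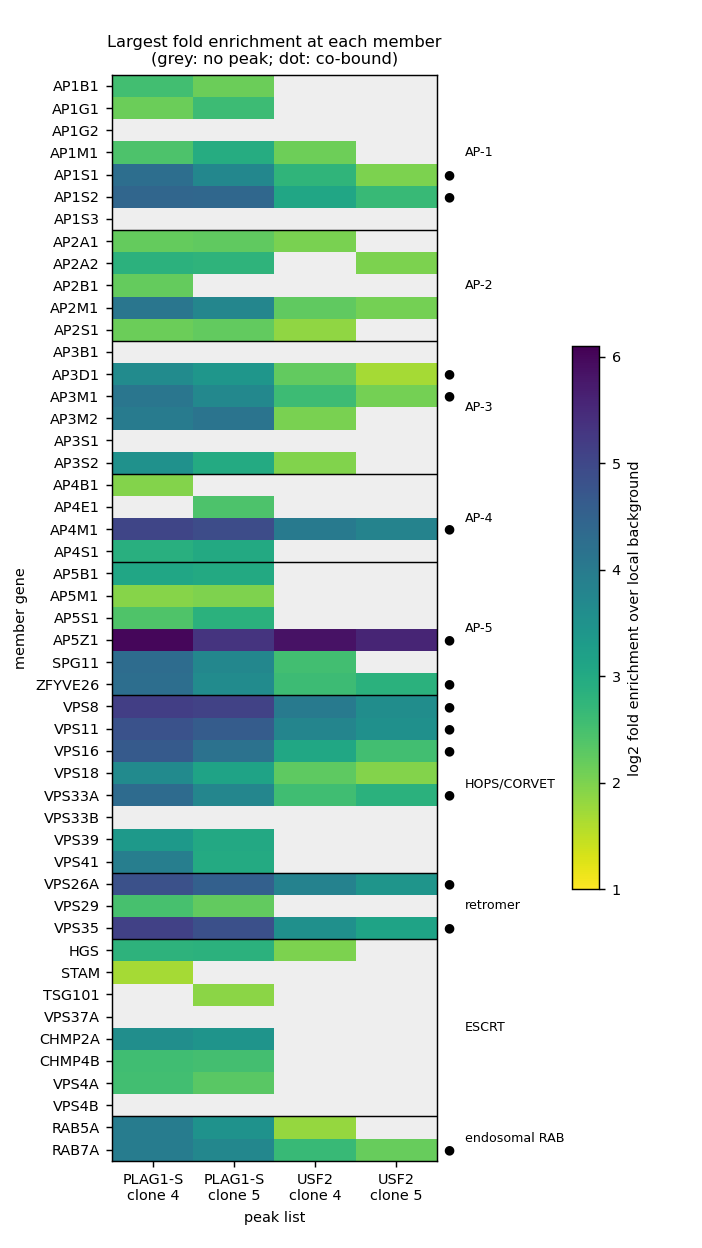
Largest fold enrichment at each sorting gene (rows, by complex) in each of the 4 lists (columns), as log2 fold enrichment over the local background; grey cells had no peak and dots mark the 14 co-bound genes. AP5Z1 is darkest in all 4 columns, the USF2 columns are grey at each ESCRT gene except HGS, and 7 rows are grey throughout.

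Of the 49 genes, 14 were thus co-bound, 8 had PLAG1-S in both clones with USF2 in 1 clone, 2 had USF2 in both clones at different positions, 12 had reproducible PLAG1-S without USF2, 6 had peaks of which none was reproducible and 7 had no peak. Across the 61 reproducible PLAG1-S peaks at these genes, 14 (23.0%) were co-bound, against 9.82% of all 21469 reproducible PLAG1-S peaks. Co-bound peaks had a median clone 4 PLAG1-S fold enrichment of 23.4, from 12.4 to 64.2, and the other 47 a median of 5.89, from 3.78 to 19.6. Over the whole genome the same medians were 18.9 and 6.06. Co-bound peaks were also wider, with a median of 752 bp against 372 bp, and 655 bp against 335 bp over the genome.

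Clone 4 gave the larger fold enrichment at most of the peaks. PLAG1-S was higher in clone 4 at 14 of 14 co-bound peaks and USF2 at 12 of 14, the exceptions being VPS33A and ZFYVE26. The ratio of clone 5 to clone 4 had a median of 0.865 over the 61 PLAG1-S peaks and 0.887 over all reproducible PLAG1-S peaks. For USF2 the median was 0.758 over the 14 co-bound peaks and 0.824 over all reproducible USF2 peaks. The intervals of the clones overlapped at all 14 USF2 peaks and, taking the strongest clone 5 peak within each clone 4 interval, at all PLAG1-S peaks other than those of AP5Z1 and VPS41. When the clone 5 peak with the nearest summit was taken instead, a pairing added after seeing the data, RAB7A joined them, with 15.5 (11.8 to 19.9) against 7.74 (5.19 to 11.1). The clone summits then lay within 100 bp of each other at 52 of the 61 peaks, and the ratios of these ran from 0.499 to 1.37 with a median of 0.862. PLAG1-S exceeded USF2 in both clones at 13 of the 14 co-bound peaks, although the antibodies differ and fold enrichments of different factors are not on a common scale.

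**Figure D4:**
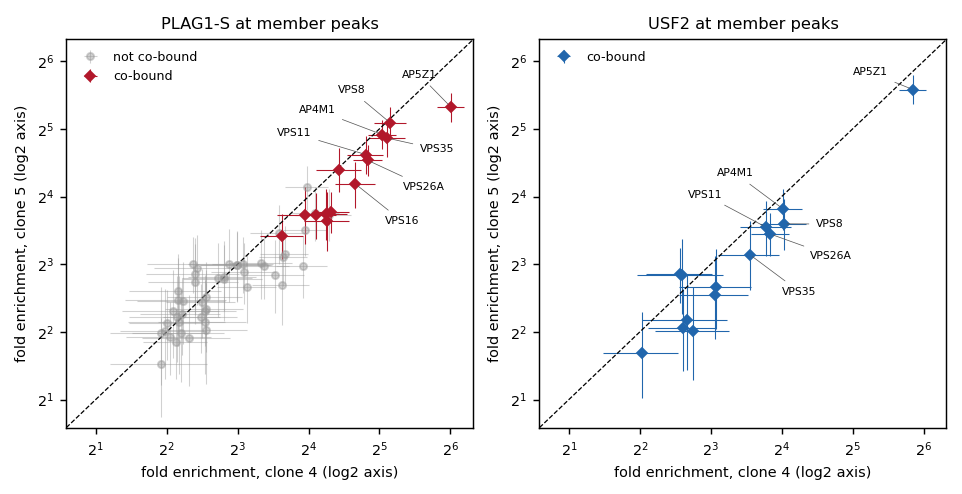
Fold enrichment in clone 5 (vertical axis) against clone 4 (horizontal axis), both on log2 axes, for the reproducible PLAG1-S peaks (left) and co-bound USF2 peaks (right) at the sorting genes, with exact 95% Poisson intervals of the fragment count as bars. The co-bound PLAG1-S peaks all lie under the dashed line of equal values, with AP5Z1 at 64.2 and 40.1.

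The summits of both factors fell close together at the co-bound genes. From the clone 4 PLAG1-S summit, the median distance was 17 bp to the clone 4 USF2 summit, with 12 of 14 within 50 bp, and 16 bp to the clone 5 PLAG1-S summit, with 13 of 14 within 50 bp. With the nearest summit in place of the strongest peak, these counts were 13 and 14. Over all 2108 co-bound peaks the median distance between the clone 4 summits was 15 bp, with 81.7% within 50 bp. In 10 of the 14 cases the summit lay within 500 bp of an end of the sorting gene, and in 10 the nearest coding gene end was its own. The other 4 peaks were nearest to MCM7 (14 bp), VGF (509 bp), ADK (176 bp) and DOT1L. The last, counted for AP3D1, lay inside AP3D1 and 12396 bp from the end of DOT1L.

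CACGTG was present in most of the sorting promoters under a co-bound peak and rare in the other promoters searched. The motif reads the same on both strands and was found in 8 of the 39 promoters (20.5%), against 8.88% of the 15860 protein-coding promoters of the same length. It stood in 7 of the 9 promoters under a co-bound peak, in 1 of 11 under reproducible PLAG1-S without a co-bound peak, and in none of the 13 without a peak or the 6 with another peak. Over all genes, the corresponding shares were 58.6%, 11.2%, 3.39% and 4.95%. The co-bound peaks of AP1S1 and AP3M1 lay outside the searched promoters, so these genes fell in the other classes. The co-bound genes VPS33A, VPS26A and AP3D1 had no promoter entry. The sequence at these co-bound peaks was not searched. Of the 9, RAB7A was counted because its wide PLAG1-S peak reached the promoter. Its reproducible USF2 summits lay 701 and 717 bases downstream of the start, outside the sequence searched. The longer TCACGTGA, which contains CACGTG, stood in AP5Z1, VPS11, ZFYVE26 and RAB5A, 4 of 39 promoters (10.3%) against 1.42% of all.

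At the 7 co-bound genes with CACGTG, the centre of the nearest E-box lay 0.5 to 14.5 bp from the clone 4 PLAG1-S summit, with a median of 8.5 bp. From the clone 4 USF2 summit it lay 5.5 to 88.5 bp away, with a median of 11.5 bp. The clone 5 medians were 11.5 bp for PLAG1-S and 6.5 bp for USF2. Both factors therefore had summits near the same E-boxes, and the distances over 40 bp came from ZFYVE26, with PLAG1-S of clone 5 and USF2 of clone 4, and from VPS16, with USF2 of clone 4. These values describe positions and do not show which factor touches the DNA.

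The G-rich motif was common with and without peaks. Searched on both strands, it was found in 18 of the 39 promoters (46.2%), against 39.2% of all. It stood in 4 of the 9 co-bound promoters, 6 of the 11 with reproducible PLAG1-S alone, 7 of the 13 without a peak and 1 of the 6 with another peak. Over all genes the corresponding shares were 50.7%, 54.6%, 30.3% and 48.1%. The motif was thus less frequent without a peak there, an order not seen in these few promoters. VPS35 and RAB7A were the co-bound promoters without CACGTG, but at RAB7A the place of the reproducible USF2 peak was not searched. VPS35 held 3 G-rich matches and CACATG, a variant of the E-box that was looked for after its promoter had been read, 19 bases upstream of the start. CACATG stood on either strand in 3 of 39 promoters (7.69%) and in 8.44% of all. By class it stood in 2 of the 9 co-bound promoters (VPS35 and AP5Z1), 0 of the 11 with PLAG1-S alone and 1 of the 13 without a peak. Over all genes these shares were 10.3%, 5.88% and 9.62%.

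**Figure D5:**
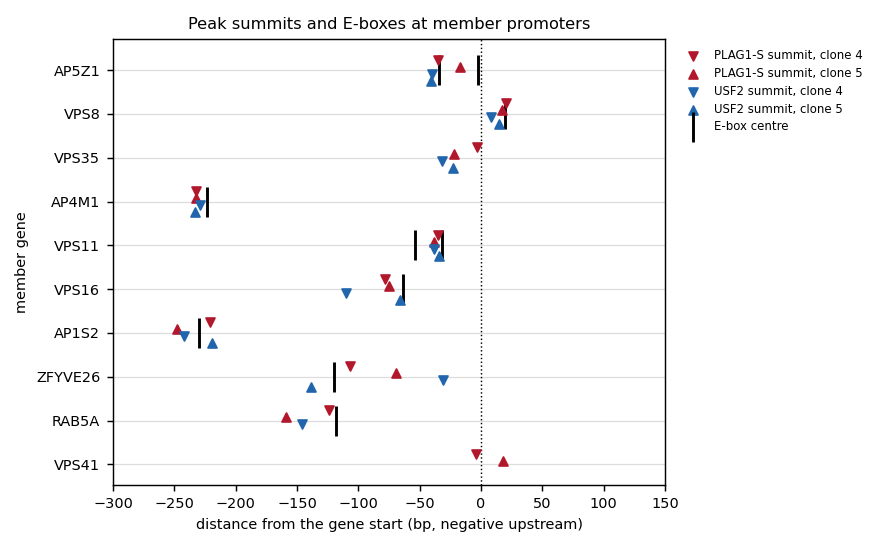
Distance of each peak summit from the gene start in bp (horizontal axis, negative upstream) for 10 genes (rows), with red triangles for PLAG1-S, blue triangles for USF2, downward for clone 4 and upward for clone 5, and black bars for the centre of CACGTG. Summits of both factors lie beside the bars at AP5Z1, VPS8, AP4M1 and VPS11, and VPS35 and VPS41 have no bar.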

How the data were processed

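ChIP-seq peaks of Flag-PLAG1-S and USF2 in K562 clones 4 and 5 were analysed, and the input libraries themselves were not analysed here. The submitters' processing notes name FastQC, cutadapt, HISAT2 2.0.4, SAMtools, MACS2, bedtools and HOMER and the build hg38. Reads were 50 bp and single-ended. The authors deposited, for each immunoprecipitated library, peak intervals and summits, a score that is 10 times the −log10 q rounded down, the fold enrichment over local background as a ratio, and −log10 p- and q-values. The merged inputs serve all 4 lists, which are therefore not independent of each other. Peak lists hold only what passed the caller's threshold, so a missing peak is no measure of zero binding.

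Fragments and background were recovered from the fold and −log10 p deposited by the authors, within 0.001 of the latter, for all 215 peaks at the genes, and the recovery was tested on simulated data. Same-numbered libraries come from the same clonal line, which pairs PLAG1-S with USF2, and a within-clone value was computed. Gene bodies, starts, strands and promoter sequences came from RefSeq GRCh38.p14. Python 3.11.15, numpy 2.4.6, pandas 2.3.3, scipy 1.17.1 and matplotlib 3.10.9 were used. No test was run. Genes and lists were chosen with earlier results of these data known. By rule, co-bound genes, genes with peaks in all 4 lists and the 5 largest clone 4 values of each factor were named with values, and the others named with values, such as SPG11, VPS41 and RAB5A, were chosen after their values were seen. AP1M1, AP3B1, AP3D1, AP3M2, SPG11, VPS18, VPS33A, VPS33B, VPS26A and VPS37A had no promoter entry.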

Additional observations from a re-analysis of the deposited data

How the results depend on the processing

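Reproducible PLAG1-S lay at 36 of the 49 genes and within 1.5 times that number under each alternative. The 1 kb around gene starts, added after seeing the data, gave 25 of the 39 genes with a known start. The share was lowest at a −log10 q of at least 10, at 63.3% against 33.0% of all coding genes. It was highest with peaks of either clone, at 85.7% against 67.8%. With a −log10 q of at least 10, USF2 fell from 14 to 8 genes and co-binding from 14 to 8 (16.3%, against 5.74% of all coding genes). AP1S1, AP3D1, AP3M1, ZFYVE26, VPS16 and RAB7A were the 6 lost. With peaks of either clone, USF2 lay at 25 genes (51.0%, against 27.1%) and both factors at 22 (44.9%, against 22.0%), the 8 additional co-bound genes being AP1M1, AP2A2, AP2M1, AP2S1, AP3S2, SPG11, VPS18 and RAB5A. With 1 clone left out, PLAG1-S lay at 39 to 40 genes, USF2 at 17 to 24 and both at 15 to 20, the higher number coming from clone 4 alone in each case. The shares of all coding genes rose with them, to 25.3% for USF2 and 20.5% for both in clone 4 alone and 13.6% and 11.3% in clone 5 alone. With the replicate block, co-binding was counted within each clone and averaged, giving 17.5 genes (35.7%, against 15.9% of all coding genes). The cause of these changes was not tested beyond the smaller or larger peak sets that the definitions make. AP1S2, AP5Z1, VPS8, VPS11, VPS33A, VPS26A and VPS35 were co-bound in all 15 alternatives in which each gene was followed. As few as 16 fragments at a co-bound USF2 summit (RAB7A, clone 5) leave wide intervals, and the lists give no signal where no peak was called.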

Other observations

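Another 71 endosomal genes, chosen by function, carried reproducible PLAG1-S at 56 (78.9%, against 52.0% of all protein-coding genes) and USF2 at 17 (23.9%, against 10.3%). Co-bound peaks lay at the same 17 (23.9% of the 71 genes, against 9.98% of all protein-coding genes). Over all protein-coding genes the counts with USF2 and with a co-bound peak were also close, 2073 and 2000. The ESCRT genes outside the 8 described above were co-bound at 4 of 23, so that 4 of 31 ESCRT genes (12.9%) were co-bound in all, near the background. Of these, the peak counted for CHMP5 was nearest to BAG1. PDCD6IP, which encodes ALIX, an ESCRT partner, carried PLAG1-S of 41.0 and 33.9 with USF2 of 27.3 and 18.7 in clones 4 and 5. VPS37C, an ESCRT-I subunit gene, carried PLAG1-S of 36.6 and 36.3 with USF2 of 17.1 and 9.65, and its paralogue VPS37B 27.1, 21.4, 12.9 and 8.22 in the same order. VPS37A, described above, had no peak in any list.

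The genes of retriever, the sorting nexins and the WASH complex act with retromer on endosomes. Co-bound peaks lay at 7 of these 15 (46.7%, against 9.98% of all protein-coding genes), including SNX1 through a peak nearest to CIAO2A. VPS26C, the retriever counterpart of VPS26A, carried PLAG1-S of 31.9 and 29.5 with USF2 of 13.4 and 10.6. WASHC4 carried PLAG1-S of 27.8 and 23.2 with USF2 of 12.9 and 10.0. WASHC2A and WASHC2C, with PLAG1-S of 36.6 and 29.2 in clone 4, are near-identical copies between which short reads may not be placed with certainty. TGFBRAP1, the other subunit by which CORVET differs from HOPS, carried PLAG1-S of 36.0 and 28.1 with USF2 of 15.1 and 12.3. These values were close to those of VPS8. The further tethering genes, TGFBRAP1 included, were co-bound at 2 of 7 (28.6%, against 9.98%), TGFBRAP1 and VPS50. VIPAS39 and VPS52 of this group had no reproducible peak. The sorting receptor genes were co-bound at 2 of 4 (50.0%, against 9.98%), IGF2R and M6PR. These are the mannose 6-phosphate receptors that retromer and the adaptors carry. Groups of 4 or 7 genes allow a description only. IGF2R had PLAG1-S of 42.9 and 34.8 with USF2 of 26.0 and 17.6. M6PR had PLAG1-S of 26.9 and 21.1 with USF2 of 10.1 and 7.85. SORT1 of the same group had PLAG1-S of 5.8 and 4.28 without USF2, and SORL1 had no reproducible peak. The clathrin and GGA genes were co-bound at 1 of 9 (11.1%), where the peak counted for GGA2 was nearest to EARS2. The other RAB genes and their effectors were co-bound at 1 of 13 (7.69%), RABEP1. Both shares lay near the 9.98% of all protein-coding genes.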
